A study of Mus musculus with 27 samples.

Results

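Desmosomes are the cell–cell junctions that anchor keratin filaments at the membrane and let an epithelial sheet resist pulling. In each desmosome the cadherins of 2 families, the desmogleins and the desmocollins, bind those of the neighbouring cell. Plakoglobin and the plakophilins hold the cadherin tails from inside, and desmoplakin ties them to the keratin filaments. The mammary epithelium uses these junctions in both its luminal and its basal layer, and some of the cadherins (desmoglein 1 and 3, desmocollin 1 and 3) are best known from stratified skin.

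The 10 genes described here, of 24454 in the table, were the desmogleins Dsg1a, Dsg2 and Dsg3, the desmocollins Dsc1, Dsc2 and Dsc3, plakoglobin (Jup), the plakophilins Pkp1 and Pkp3, and desmoplakin (Dsp). They were found by their Entrez identifiers. The list was drawn up with results of these data known, and Dsc1 was selected on its levels with Wnt3a in the ΔHD2 lines, so its values are a description with no test. The 6 cadherin genes lie in 1 cluster with Dsg1b, Dsg1c and Dsg4 on chromosome 18 of GRCm38, from 19960930 at the outer end of Dsc3 to 20604521 at the end of Dsg2. Dsp lies on chromosome 13 (38151294 to 38198577, plus strand), Jup on chromosome 11 (100368958 to 100397763, minus strand), Pkp1 on chromosome 1 (135871395 to 135919207, minus strand) and Pkp3 on chromosome 7 (141078218 to 141090510, plus strand).

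RNA was measured in 27 libraries from 9 cell lines, each grown from a thoracic mammary gland tumour of an MMTV-PyMT mouse on the FVB/N background. In these mice the MMTV promoter, active in mammary epithelium, drives the polyoma middle T oncogene. All lines carried mutant alleles of Bcl9 and Bcl9L, adaptor proteins that link β-catenin to Pygopus: ΔHD1 alleles lack the domain that binds Pygopus, and ΔHD2 alleles lack the one that binds β-catenin. The ΔHD1/fl (2 lines) and ΔHD2/fl (2 lines) cells held a mutant and an intact floxed allele, and the ΔHD1/- (2 lines) and ΔHD2/- (3 lines) cells had lost the floxed allele after adenoviral Cre infection and a sort for GFP. No line without a mutant allele was among them. Every line was grown without cytokine (4 days), with Wnt3a (100 ng/ml, 3 days) and with TGFβ (2 ng/ml, 4 days), so Wnt3a had no control of its own duration. A line is the replicate, numbered within its genotype, and its 3 libraries share that line. A - line and an fl line may share a tumour, so the 9 lines need not come from 9 tumours.

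The libraries held 21864011 to 33692360 counted reads, and values are in counts per 1000000 reads (CPM). A count of 0 allows up to 3 reads, or 0.0890 to 0.137 CPM, for counting error only. Lines 2 and 3 of ΔHD2/- were closer to each other (Pearson r of 0.993 to 0.997 across genes in 3 pairs of libraries) than any other pair of the same group (0.807 to 0.957 in 15 pairs). ΔHD1/fl line 2 and ΔHD1/- line 2 stood apart from the epithelial label. Their 5 epithelial markers (Epcam, Krt8, Krt18, Cdh1, Cldn7) summed to 1.57 and 1091 CPM without cytokine, against 2249 to 4871 CPM in the other lines. Their 7 fibroblast markers (Col1a1, Col1a2, Pdgfra, Pdgfrb, Dcn, Lum, Thy1) summed to 2041 and 5430 CPM, against 217 in ΔHD1/- line 1 and 1.05 to 45.7 elsewhere, although Lum stayed at or under 0.0355, Thy1 under 1.77 and Dcn under 2.74 CPM in all 27 libraries. Epcam was at 0 in all 3 libraries of ΔHD1/- line 2 and at 1 or 2 reads in those of ΔHD1/fl line 2. Nearly all of the untreated epithelial sum of ΔHD1/- line 2 was Krt8 (1089 CPM). Krt18 was at 2.23 CPM there, and Cdh1 and Cldn7 were at 0.237 CPM. Immune and endothelial marker sums were at most 0.284 and 6.51 CPM. Bcl9 (32.4 to 104 CPM) and Bcl9l (70.7 to 346 CPM) were read in every library, which checks nothing, since mutant alleles are transcribed too. In bulk RNA, fewer cells of a type and less RNA of a gene per cell cannot be told apart.

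For 2 of the 10 genes, Dsp and Jup, a window before the transcription start was at hand, and the first 250 bases of each are printed because desmoplakin and plakoglobin, partners in the same plaque, gave different values with TGFβ. They come from RefSeq (GRCm38.p6), are written 5′ to 3′ on the gene's strand, and capitals mark GGGCGG, the GC box, on either strand.
Dsp (chr13:38151044-38151293, plus strand): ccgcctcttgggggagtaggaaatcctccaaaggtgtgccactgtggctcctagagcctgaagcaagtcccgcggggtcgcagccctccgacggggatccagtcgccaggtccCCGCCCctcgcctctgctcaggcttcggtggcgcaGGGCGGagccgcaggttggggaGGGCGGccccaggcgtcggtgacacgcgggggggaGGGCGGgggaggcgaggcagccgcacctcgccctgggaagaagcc
Jup (chr11:100397791-100398040, minus strand): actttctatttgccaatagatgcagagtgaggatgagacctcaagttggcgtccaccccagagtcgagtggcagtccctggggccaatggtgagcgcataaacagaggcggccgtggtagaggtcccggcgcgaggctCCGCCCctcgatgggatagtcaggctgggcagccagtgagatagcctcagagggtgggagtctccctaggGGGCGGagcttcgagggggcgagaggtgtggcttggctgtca
The Dsp window held 4 GC boxes, 137, 102, 80 and 45 bases before the start, and the Jup window held 2, at 112 and 42 bases. Distances are counted from the start that RefSeq gives the window, which for Jup lies a little upstream of the end of the gene given above. Of 32851 windows of this length, 32.7% held at least 1 GC box, a motif added after the windows had been read. Neither window held CACCTG (the E-box of ZEB and Snail factors, in 17.2% of windows), AACCNGTT (grainyhead-like factors, 1.79%), CTTTGAT (TCF/LEF factors, 3.21%) or TGANTCA (AP-1, 6.75%), each searched on both strands.

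Without cytokine the median RNA levels of the plaque genes were above those of the cadherins, though not in every line: in ΔHD1/fl line 2 Pkp3 (9.14 CPM) was below Dsg2 (29.0 CPM), also per kilobase. Per kilobase of exon, the median over the 9 lines was 266 CPM for Jup (26.0 to 413), 110.2 for Pkp1, 91.8 for Pkp3 (2.98 to 126) and 65.1 for Dsp (5.21 to 213). Among the cadherins it was 19.3 for Dsg3 (0 to 66.8), 12.2 for Dsg2 (0.381 to 24.9), 0.338 for Dsc2 (0 to 3.68) and 0.182 for Dsg1a (0 to 1.37), and it was 0 for Dsc1 and Dsc3. The ranges of all neighbours in this order overlapped. Dsp was above Dsg3 in 9 of 9 lines and Dsg2 above Dsc2 in 9 of 9, while Pkp3 was above Dsp in 4, Dsg3 above Dsg2 in 5 and Dsc2 above Dsg1a in 5, so these last 3 pairs had no settled order.

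**Figure D1:**
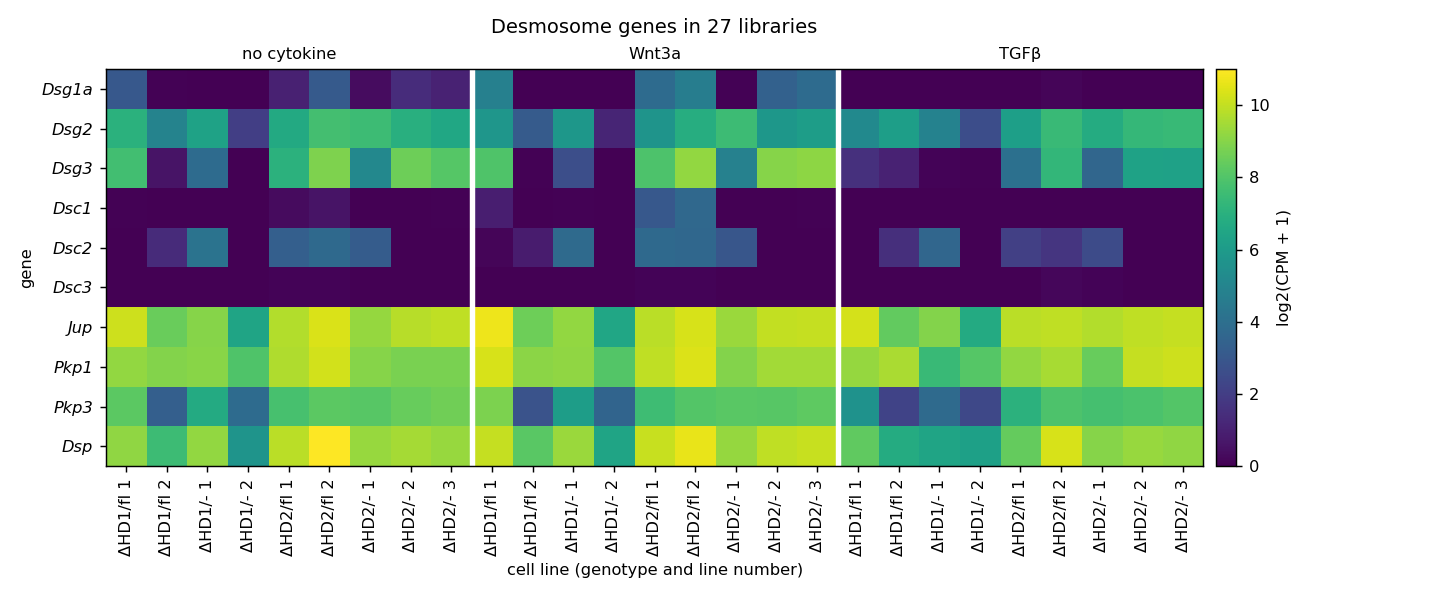
Level of each of the 10 genes, as log2(CPM + 1), in the 27 libraries, with cell lines grouped by genotype and by treatment. Jup, Pkp1 and Dsp were present in every library, Dsc3 stayed at or under 0.142 CPM, and the 2 ΔHD1 lines numbered 2 had low Dsg3 and Pkp3 under every treatment.

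Lines of the same treatment differed widely. The highest untreated level was 4.87 times the lowest for Pkp1, 15.9 times for Jup, 40.9 times for Dsp, 42.2 times for Pkp3 and 65.5 times for Dsg2. ΔHD1/- line 2 held the lowest Jup, Pkp1, Dsp and Dsg2, and ΔHD1/fl line 2 the lowest Pkp3. Both are the lines with high fibroblast and low epithelial marker sums, and the part of this in the levels was not tested. They also had 134 and 205 CPM of Zeb1, a repressor of epithelial genes, against 1.31 to 52.9 elsewhere, and 0.237 and 0.522 CPM of Cdh1 (E-cadherin), against 606 to 1145.

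**Figure D2:**
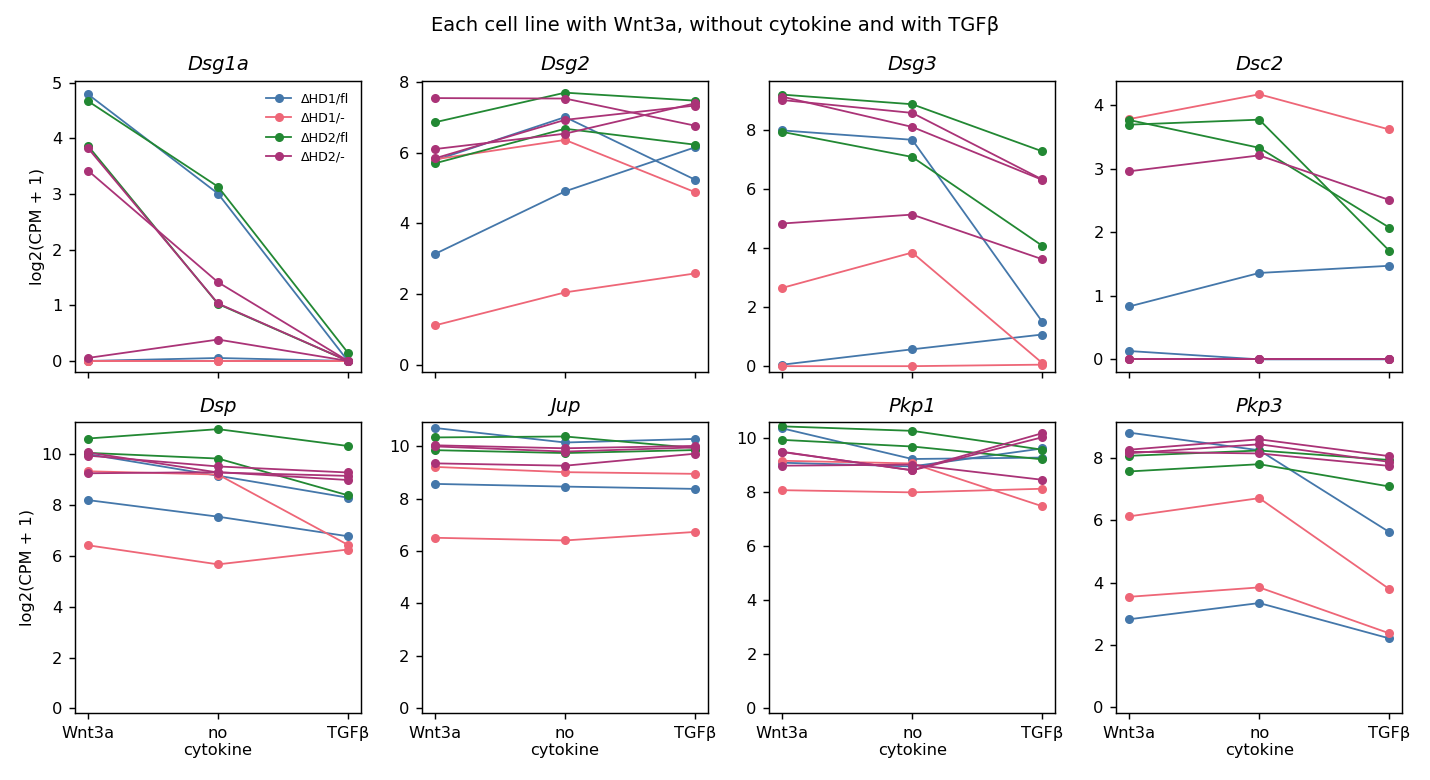
Level of the 8 tested members, as log2(CPM + 1), with Wnt3a, without cytokine and with TGFβ. Each point is a library, points of a cell line are joined, and colours mark the genotype. Pkp3 was lower with TGFβ in all 9 lines, Dsg1a is at or near 0 in the TGFβ column, and Jup differs by at most 1.37 times there.

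Plakophilin 3, which binds a wide range of desmosomal partners, was the member with the same direction in every line under TGFβ. Without cytokine Pkp3 measured 302 and 9.14 CPM in ΔHD1/fl, 104 and 13.4 in ΔHD1/-, 221 and 301 in ΔHD2/fl, and 281, 345 and 386 in ΔHD2/-. With TGFβ it measured 48.2 and 3.62, 12.9 and 4.18, 135 and 243, and 213, 233 and 265 CPM in the same order. It was lower in 9 of 9 lines, by 6.27, 2.52, 8.05 and 3.20 times in the 4 ΔHD1 lines and by 1.65, 1.24, 1.32, 1.48 and 1.46 times in the 5 ΔHD2 lines. These ranges of folds did not overlap between the ΔHD1 and the ΔHD2 lines, a split seen before it was tested. How many of all genes split in this way was not counted. Averaged over the 4 genotypes the change was -1.27 ± 0.77 (log2, SE) without a term for the line, where limma gave an adjusted p of 0.277, and -1.27 ± 0.21 with the cell line as a block, where the adjusted p was 0.000453. By genotype with the block, Pkp3 fell in ΔHD1/fl (-1.88 ± 0.44, limma adjusted p = 0.0208) and in ΔHD1/- (-2.19 ± 0.44, adjusted p = 0.00494), and the values were -0.51 in ΔHD2/fl (adjusted p = 0.480) and -0.50 in ΔHD2/- (adjusted p = 0.404). The calls by genotype rested on the first line of each: leaving out ΔHD1/fl line 1 gave a change there of -1.13 (limma adjusted p = 0.168), and leaving out ΔHD1/- line 1 gave -1.47 in ΔHD1/- (adjusted p = 0.165). The ΔHD1/fl call also missed the threshold without ΔHD2/- line 2 (limma adjusted p = 0.0506). The difference between the ΔHD1 and the ΔHD2 lines, a comparison added after the values were seen, was -1.53 ± 0.42 with the block and did not pass the correction (limma adjusted p = 0.1504). In 29 of 30 alternatives this difference kept its direction and stayed uncalled. The other was the blocked fit without ΔHD1/fl line 2, which leaves a single ΔHD1/fl line. That fit kept ΔHD1/- line 2, whose epithelial marker sum was also low.

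Desmoglein 3, a cadherin of basal and stratified epithelium, had the lowest mean change of the 8 members on the log2(CPM + 1) scale, which understates changes of low genes such as Dsg1a. Without cytokine Dsg3 measured 202 and 0.485 CPM in ΔHD1/fl, 13.4 and 0 in ΔHD1/-, 135 and 466 in ΔHD2/fl, and 34.1, 380.3 and 273 in ΔHD2/-. With TGFβ the levels were 1.85 and 1.10, 0.0794 and 0.0360, 15.9 and 154, and 11.3, 79.1 and 78.3 CPM. Of the 8 lines with more than 3 reads in either library, 7 were lower and ΔHD1/fl line 2 was higher (13 reads to 31). ΔHD1/fl line 1 was lower by 109 times, ΔHD1/- line 1 went from 313 reads to 2, and the ΔHD2 lines were lower by 3.01 to 8.46 times. The mean change was -2.20 ± 1.15 without the block (limma adjusted p = 0.200) and -2.20 ± 0.65 with it, where it passed (adjusted p = 0.0139). With the block, the call was lost without ΔHD1/- line 1 (-1.73, limma adjusted p = 0.0795) and without ΔHD2/fl line 1 (-2.03, adjusted p = 0.0634).

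Desmoplakin, the link to keratin, was lower in 8 of 9 lines. Without cytokine Dsp measured 572 and 186 CPM in ΔHD1/fl, 591 and 49.95 in ΔHD1/-, 915 and 2044 in ΔHD2/fl, and 631, 737 and 625 in ΔHD2/-. With TGFβ it measured 314 and 109, 85.8 and 75.4, 335 and 1289, and 509, 625 and 569.6 CPM. The level was 6.89 times lower in ΔHD1/- line 1 and 1.10 to 2.73 times in the other 7 lines that were lower, and ΔHD1/- line 2 was 1.51 times higher. The mean change of -0.80 had an SE of 0.49 without the block (limma adjusted p = 0.279) and of 0.27 with it (adjusted p = 0.0278), under the limit of 1 on the log2 scale. Without ΔHD1/- line 2 the blocked change was -1.22 and passed both limits (limma adjusted p = 0.000148), while leaving out ΔHD1/- line 1 gave -0.38 (adjusted p = 0.0599).

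Plakoglobin, which sits in desmosomes and adherens junctions alike, differed with TGFβ from its untreated level by at most 1.37 times in any line. Jup measured 1134 and 352 CPM in ΔHD1/fl, 516 and 83.8 in ΔHD1/-, 857 and 1329.7 in ΔHD2/fl, and 613, 892 and 973 in ΔHD2/- without cytokine, and 1246 and 331, 494 and 105, 928 and 980.4, and 842, 996 and 1036 with TGFβ. It was higher in 6 lines and lower in 3. The blocked change was 0.06 ± 0.08 (limma adjusted p = 0.580), which does not show that the level stayed the same.

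Plakophilin 1, the plakophilin of stratified epithelium, went both ways. Pkp1 measured 595 and 492 CPM in ΔHD1/fl, 531 and 252 in ΔHD1/-, 819.6 and 1226 in ΔHD2/fl, and 514, 444 and 446 in ΔHD2/- without cytokine, and 617 and 779, 176 and 277, 589.7 and 756, and 349, 1038 and 1152 with TGFβ. It was 3.01 times lower in ΔHD1/- line 1 and lower in both ΔHD2/fl lines and ΔHD2/- line 1, and higher in the other 5 lines, by 1.04, 1.59 and 1.10 times in ΔHD1/fl lines 1 and 2 and ΔHD1/- line 2 and by 2.34 and 2.58 times in ΔHD2/- lines 2 and 3, which were nearly alike. The blocked mean was -0.07 ± 0.23 (limma adjusted p = 0.826), and its sign turned to 0.10 with median-of-ratios scaling.

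Desmoglein 2, the desmoglein of simple epithelia, also split. Dsg2 measured 127 and 29.0 CPM in ΔHD1/fl, 81.0 and 3.15 in ΔHD1/-, 101 and 206 in ΔHD2/fl, and 183, 121 and 91.7 in ΔHD2/- without cytokine, and 36.7 and 70.0, 28.5 and 5.00, 73.7 and 176, and 107, 159.8 and 167 with TGFβ. It was higher in 4 lines, among them both ΔHD1 lines numbered 2, and lower in 5, and the blocked mean was -0.23 ± 0.36 (limma adjusted p = 0.631). While Dsg3 was lower in ΔHD2/- lines 2 and 3, Dsg2 was 1.33 and 1.82 times higher there.

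**Figure D3:**
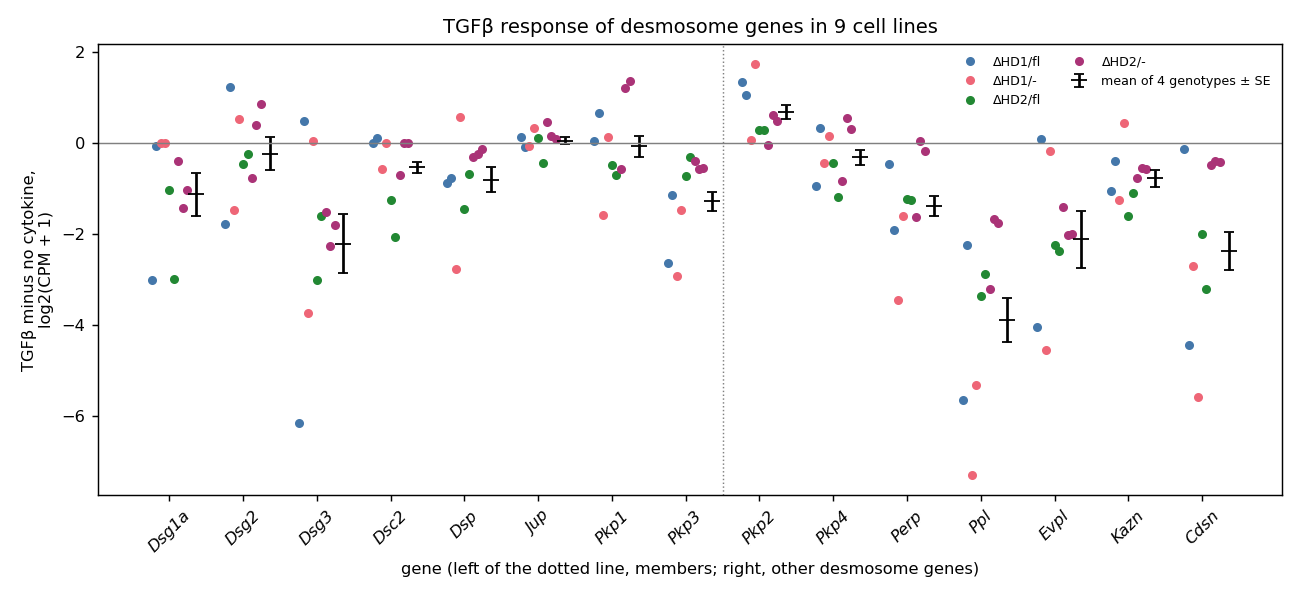
Difference with TGFβ minus no cytokine, in log2(CPM + 1), for the 8 tested members and other desmosome genes in each line (points coloured by genotype) and as the mean of the 4 genotypes ± SE from the fit with cell line as a block (black). All 9 points of Pkp3 lie below 0, Jup lies within 0.46 of 0, and Dsg3 reaches -6.15 in the lowest line.

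Over the 8 members that could be tested, limma without the block called 0 under the mean TGFβ response (adjusted p at most 0.05 and at least 1 on the log2 scale), where 5.42% of 13270 genes were called. At an unadjusted p under 0.05 limma gave 0 members, beside 4156 of the 13270 genes. EdgeR gave 1 member (Dsg3) at that p and called 0. With the cell line as a block 2 were called, both lower (Dsg3 and Pkp3), where 8.92% of all genes were called and 5.9% were called as lower. At an unadjusted p under 0.05 the blocked fit gave 5 members (Dsp, Dsc2, Dsg1a, Dsg3 and Pkp3), beside 7262 of the 13270 genes. Without ΔHD1/fl line 2, limma without the block called Pkp3, Dsg3 and Dsg1a as lower. That fit leaves a single ΔHD1/fl line and its share of all genes is not given, so nothing is read from it. The median change was -0.66 over the members and -0.16 over all genes, and -0.53 and -0.02 after median-of-ratios scaling. By genotype the unblocked fit called 0 members in each, where 0.211% (ΔHD1/fl), 1.43% (ΔHD1/-), 0.286% (ΔHD2/fl) and 0.806% (ΔHD2/-) of genes were called. The blocked fit called 1 (Pkp3), 1 (Pkp3), 1 (Dsc2) and 0, where 5.42%, 9.33%, 5.24% and 6.03% of genes were called. Because the list was drawn up with these results known, nothing is read from the counts against these shares. The summed epithelial markers had a median of 2869 CPM (1.57 to 4871) without cytokine and 3034 (5.68 to 6529) with TGFβ, and the fibroblast markers 32.7 (1.05 to 5430) and 66.8 (3.77 to 4515). Within the epithelial sum the genes went both ways: Krt8 and Krt18 were each higher with TGFβ in 7 of 9 lines. Cdh1 was lower in 8, Cldn7 in 7 and Epcam in 5, lines at a few reads included. Of 5 basal markers, whose sum had a median of 1577 CPM without cytokine and 1052 with TGFβ, 4 could be tested: limma called Trp63 without the block, and with it Krt5, Krt14 and Trp63 as lower and Acta2 as higher. Of the 5 epithelial markers limma called 0 without the block and Cdh1 as lower with it, and of 6 fibroblast markers that could be tested 0 and then Col1a1 as higher. Of 4 endothelial markers 2 could be tested, and Cdh5 was called as higher in both fits. The part of a change in cell makeup in the values of the members was not tested.

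Desmoglein 1, the cadherin of the outer skin layers, is carried in the mouse by near-identical copies. The study's methods describe reads kept only where they mapped once, so how its reads split between Dsg1a, Dsg1b and Dsg1c is uncertain. Without cytokine Dsg1a measured 7.04 and 0.0373 CPM in ΔHD1/fl, 0 in both ΔHD1/- lines, 1.03 and 7.77 in ΔHD2/fl, and 0.306, 1.67 and 1.05 in ΔHD2/-. With TGFβ it was 0 in 8 lines and 0.107 CPM (3 reads, from 210) in ΔHD2/fl line 2. All 6 lines with more than 3 reads were lower, by at least 55.8 times in ΔHD1/fl line 1 and at least 15.0 times in ΔHD2/- line 2, where the TGFβ library is set at 3 reads. In ΔHD2/fl line 1 and ΔHD2/- lines 1 and 3 the gene went from 24, 7 and 25 reads to 0. The mean change was -1.12 ± 0.47 with the block and did not pass (limma adjusted p = 0.0648). It ranged from -5.84 to -0.75 over 30 alternatives, of which 4 called it: without ΔHD1/fl line 2 (limma adjusted p = 0.0492, and 0.0117 with the block), and with the block at a pseudocount of 0.1 (-2.73, adjusted p = 0.0124) or without ΔHD2/- line 1 (0.0379). The change of -5.84 came from edgeR, which did not call it (adjusted p = 1). Dsg1b went the same way, from at most 34.2 CPM without cytokine to at most 0.0420 with TGFβ, and its blocked change passed (-2.01, limma adjusted p = 0.0227).

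With Wnt3a, Dsg1a measured 26.7 and 0 CPM in ΔHD1/fl, 0 and 0 in ΔHD1/-, 13.6 and 24.5 in ΔHD2/fl, and 0.0385, 9.71 and 13.2 in ΔHD2/-. Of the 6 lines with more than 3 reads it was higher in 5 and lower in ΔHD2/- line 1 (7 reads to 1). The level was 3.79 times as high in ΔHD1/fl line 1, 13.1 and 3.15 times as high in ΔHD2/fl, and 5.83 and 12.6 times in ΔHD2/- lines 2 and 3. The mean change was 1.14 ± 0.47 with the block and did not pass the correction (limma adjusted p = 0.256). Dsg1a made up 28.1% to 35.8% of the reads of the 3 copies in ΔHD1/fl line 1 and the ΔHD2/fl lines without cytokine and 45.4% to 46.6% with Wnt3a, and 4.65% and 5.88% against 15.1% and 13.1% in ΔHD2/- lines 2 and 3.

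**Figure D4:**
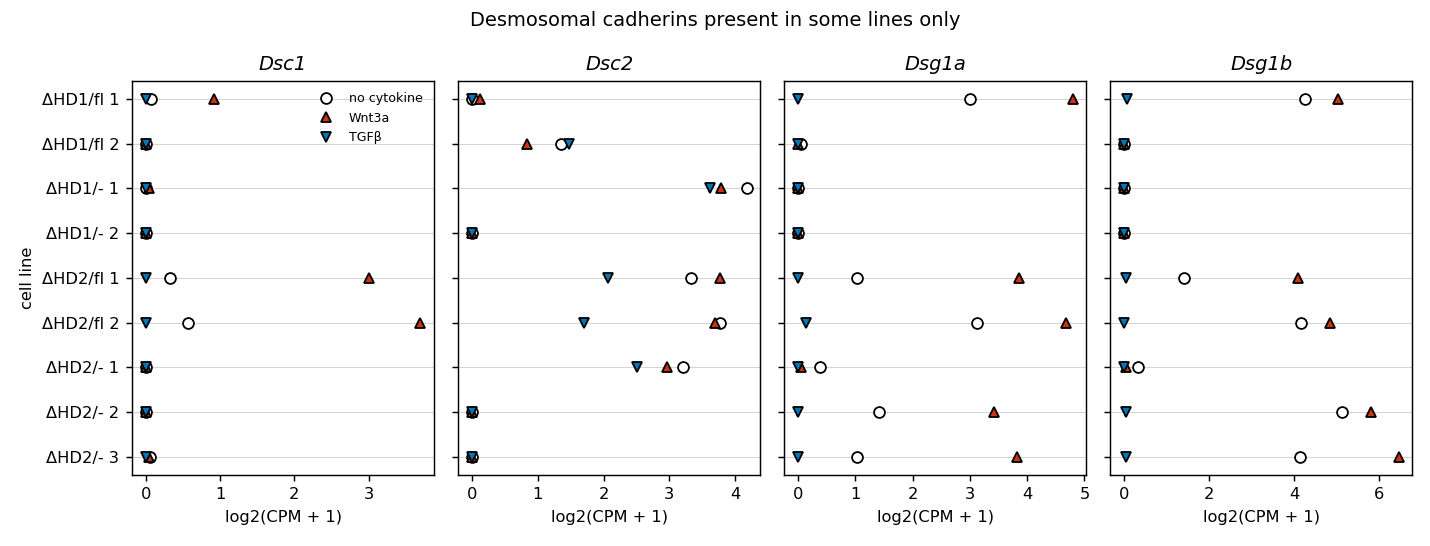
Level, as log2(CPM + 1), of Dsc1, Dsc2, Dsg1a and Dsg1b in each line without cytokine (circles), with Wnt3a (upward triangles) and with TGFβ (downward triangles). Dsg1a is at or near 0 in all 9 TGFβ libraries, Dsc1 exceeds 1 CPM only in the 2 ΔHD2/fl libraries with Wnt3a, and Dsc2 is present in some lines and absent at this depth in others.

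The desmocollins were scarce in all lines. Desmocollin 1, the partner of desmoglein 1 in the upper skin, was listed above 1 CPM in 2 of 27 libraries. Dsc1 measured 0.259 and 0.481 CPM (6 and 13 reads) in ΔHD2/fl lines 1 and 2 without cytokine, 7.05 and 11.98 CPM (175 and 302 reads) with Wnt3a, and 0 with TGFβ. That is 27.3 and 24.9 times higher with Wnt3a. ΔHD1/fl line 1 went from 1 read to 28 (0.888 CPM), the ΔHD1/- lines held at most 0.0350 CPM and the ΔHD2/- lines at most 0.0419 under any treatment, and all 9 TGFβ libraries were at 0. These values were the ones that put Dsc1 on the list, so no test is given, and the gene passed the filter on low values only through ΔHD2/fl with Wnt3a. Without cytokine and with Wnt3a the ΔHD2/fl and ΔHD2/- levels of Dsc1 did not overlap. The gene was selected on such values, so nothing is read from this. Without cytokine it rests on 6 and 13 reads against at most 1.

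Desmocollin 2, the desmocollin of simple epithelia, was present or missing by line rather than by treatment. Dsc2 measured 0 and 1.57 CPM in ΔHD1/fl, 17.0 and 0 in ΔHD1/-, 9.05 and 12.7 in ΔHD2/fl, and 8.25, 0 and 0 in ΔHD2/- without cytokine. With TGFβ it measured 0 and 1.78, 11.3 and 0, 3.21 and 2.27, and 4.69, 0 and 0 CPM. Of the 5 lines with more than 3 reads, 4 were lower, by 1.51 (ΔHD1/- line 1), 2.82 and 5.57 (ΔHD2/fl) and 1.76 times (ΔHD2/- line 1), and ΔHD1/fl line 2 was 1.13 times higher. With the block the mean change was -0.53 ± 0.12 (limma adjusted p = 0.00352), short of the limit on size, and Dsc2 fell in ΔHD2/fl (-1.66 ± 0.25, adjusted p = 0.00273). That call was lost without ΔHD2/fl line 2 (-1.25, limma adjusted p = 0.180) and with edgeR (-1.80, adjusted p = 0.163). Dsc3, the basal-layer desmocollin, reached at most 0.142 CPM in any library and was not tested.

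In 4 of the 9 untreated libraries the 3 desmocollins together held 3 reads or fewer, while the desmogleins there (with Dsg1b, Dsg1c and Dsg4 counted in) summed to 354.5 CPM (ΔHD1/fl line 1), 3.15 (ΔHD1/- line 2), 537 and 383 (ΔHD2/- lines 2 and 3). The same was seen in 3 libraries with Wnt3a and in 4 with TGFβ. Such counts are within what a count of 0 allows at this depth.

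With Wnt3a, Jup, Pkp1, Pkp3 and Dsp differed from the untreated level by at most 2.20 times in any line. Jup measured 1665 and 378 CPM in ΔHD1/fl, 593 and 90.04 in ΔHD1/-, 925 and 1297 in ΔHD2/fl, and 652, 1022 and 1053 in ΔHD2/-, higher than without cytokine in 8 of 9 lines by 1.06 to 1.47 times. Pkp1 was higher in 8 of 9 lines, by 1.06 times in ΔHD1/- line 2 (267 against 252 CPM) up to 2.20 times in ΔHD1/fl line 1 (1307 against 595). Dsp was higher in 7 of 9 lines, by up to 1.80 times. Dsg2 went the other way and was lower in 8 of 9 lines, at 54.1 and 7.81 CPM in ΔHD1/fl, 55.2 and 1.17 in ΔHD1/-, 50.9 and 115 in ΔHD2/fl, and 185, 56.3 and 67.6 in ΔHD2/-. Its blocked change was -0.91 ± 0.36 (limma adjusted p = 0.242). Pkp3 was lower in 7 lines and Dsg3 higher in 5 and lower in 3, with blocked changes of -0.20 and 0.07.

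None of the 8 members was called under the mean Wnt3a response, by limma without the block (0.0226% of all genes called), with it (0.241%) or by edgeR. At an unadjusted p under 0.05 limma without the block gave 0 members, beside 614 of 13270 genes, and edgeR gave 0. With the block limma gave 2 at that p (Dsg1a and Dsg2), beside 2292 of 13270 genes. By genotype limma without the block called 0 members, and 0 had an unadjusted p under 0.05 by limma or edgeR, where 0.0151% (ΔHD1/fl), 0.00754% (ΔHD1/-), 0.113% (ΔHD2/fl) and 0.00754% (ΔHD2/-) of genes were called. With the block 0 members were called in each genotype, where 0.00754%, 0.00754%, 0.324% and 0.00754% of genes were called. There 1 member (Dsg1a in ΔHD2/fl) had an unadjusted p under 0.05, beside 839 of 13270 genes in ΔHD2/fl. The median change was 0.12 over the members and -0.06 over all genes.

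Plakophilins 1, 2 and 3 have like roles in the plaque, so their shares of the summed level per kilobase were set side by side. Without cytokine Pkp1 made up 40.0% to 87.9% (median 65.3%), Pkp3 2.49% to 52.7% (median 27.3%) and Pkp2, the plakophilin of simple epithelia and heart, 4.17% to 17.7% (median 7.33%). With TGFβ the medians were 66.1%, 22.98% and 11.7%, and with Wnt3a 73.3%, 22.0% and 5.12%. The share of Pkp3 was lower with TGFβ in 7 of 9 lines and that of Pkp2 higher in 8 of 9, and with Wnt3a both shares were lower in 8 of 9. In ΔHD1/- the Pkp2 share went from 15.3% to 40.1% in line 1 and from 17.7% to 41.1% in line 2. Pkp2 itself measured 28.7 and 33.6 CPM in ΔHD1/fl, 77.5 and 36.5 in ΔHD1/-, 49.4 and 47.9 in ΔHD2/fl, and 57.0, 45.2 and 51.1 in ΔHD2/- without cytokine, and 74.5 and 70.9, 81.8 and 123, 60.7 and 58.8, and 55.8, 70.2 and 71.7 with TGFβ. It was higher in 8 of 9 lines, with a mean of 0.69 that passed the test of limma on p (adjusted p = 0.00647, and 0.00300 with the block) but not the limit on size.

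**Figure D5:**
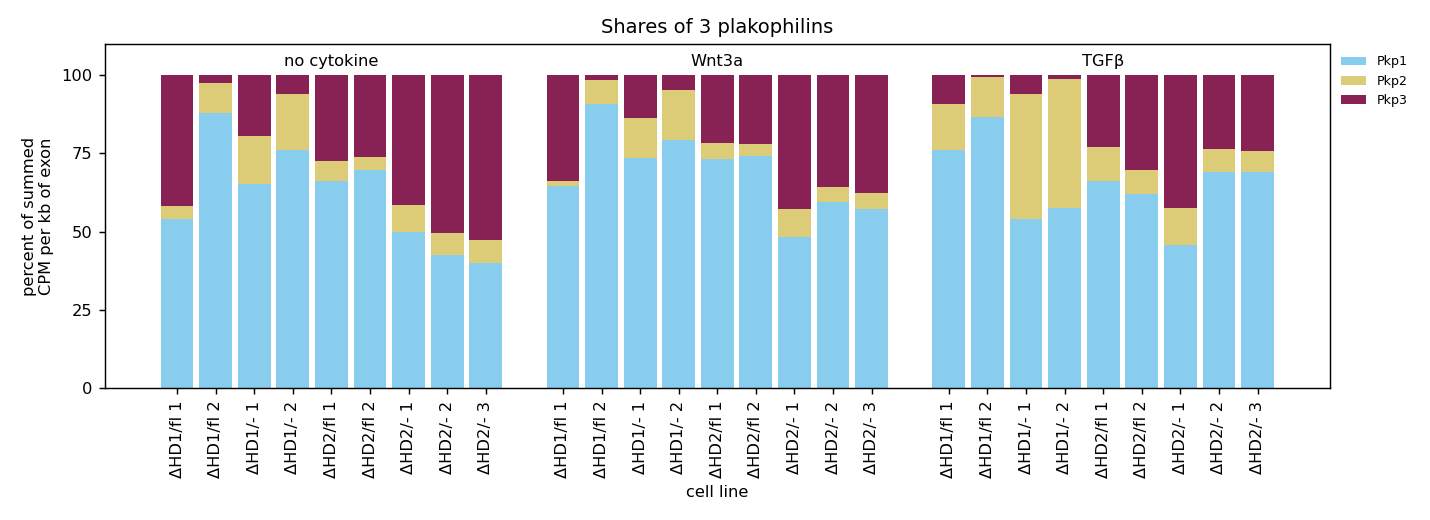
Share (percent) of Pkp1, Pkp2 and Pkp3 in their summed CPM per kilobase of exon, for each line without cytokine, with Wnt3a and with TGFβ. Pkp1 was the largest share in most libraries, and the Pkp2 share reached 40.1% and 41.1% in the ΔHD1/- lines with TGFβ.

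Of 10 other desmosome genes, listed with results known, 9 could be tested. Under the mean TGFβ response, where 5.42% of all genes were called without the block and 8.92% with it, 2 fell without the block: periplakin (Ppl), a plakin of the cornified envelope (-3.89, limma adjusted p = 0.000396), and Perp, a membrane protein of desmosomes (-1.38, adjusted p = 0.00102). With the block 5 fell, these and Evpl (-2.11), Dsg1b (-2.01) and Cdsn (-2.36), which encodes corneodesmosin. Ppl was lower in 9 of 9 lines, from 194 to 2.94 CPM in ΔHD1/fl line 1 and from 365 to 1.35 in ΔHD1/- line 1. Its values were 209 and 43.8 in ΔHD1/fl line 2 and 38.7 and 0 in ΔHD1/- line 2. In the 5 ΔHD2 lines they were 143 to 247 without cytokine and 22.98 to 45.9 with TGFβ. Under Wnt3a 0 of the 9 were called with or without the block. Of 5 adherens junction genes, only Cdh1 fell with the block (-1.53, limma adjusted p = 0.0481), with 0 called without it. Of 13 transcription factors tied to epithelial junctions, 4 were called without the block, all lower (Klf5, Grhl1, Trp63, Grhl3), and 8 with it, beside the same 5.42% and 8.92% of all genes. Of the 8, 7 fell, the 4 and Klf4, Ovol1 and Grhl2, and the repressor Zeb2 rose (1.29, limma adjusted p = 0.00802).

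Grhl2, which activates epithelial junction genes, was among the genes whose levels were most like those of Pkp3. Whether Grhl2 acts on Pkp3 in these lines was not tested. Over the 27 libraries of 9 lines, which share lines and depth, Pearson's r on log2(CPM + 1) with Pkp3 was 0.98 for Cblc, Grhl2 and Patj alike. For Dsg3 the most alike genes were Eps8l1 (0.96), Ildr1 and Crb3 (both 0.95), and for Dsg1a Krt6b (0.97), Prr15l (0.97) and Sprr1a (0.95). Jup was most like Fbxo28 (0.94), Crip2 (0.93) and AI661453 (0.92), and Dsg2 most like Snrpn and Snurf (both 0.93) and Cxadr (0.91). Pkp1 had the loosest neighbours, Exoc4, Dcxr and Il17re (all 0.78). Dsc2 was most like Nlrx1 (0.94), Tfap2b (0.93) and Cadps2 (0.91), and Dsc1, through its 2 high libraries, Scel (0.98), Gm94 (0.97) and Idi2 (0.96). Among the members Dsg3 and Pkp3 were the most alike pair (0.90), and Dsc2 and Dsg1a the least (0.01).

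The ΔHD1/- and ΔHD2/- lines were set against the fl lines of the same mutation. The - lines came from fl cells by Cre infection, so a - line and an fl line may share a tumour, which the sources used here do not give. The fits treat all lines as independent. For ΔHD1, 0 of 8 members were called without cytokine, with Wnt3a or with TGFβ, where 0.0678%, 0.0452% and 0.0301% of all genes were called. At an unadjusted p under 0.05 limma gave 0, 0 and 1 (Pkp1) and edgeR 1, 2 and 1, with 0 called by edgeR. Of all 13270 genes limma had 644, 777 and 1091 at that p. With TGFβ the Pkp1 levels in ΔHD1/- (176 and 277 CPM) were below both in ΔHD1/fl (617 and 779), a difference of -1.65 ± 0.53 that did not pass (limma adjusted p = 0.359). For ΔHD2, 0 members were called under each treatment, where 0.55%, 0.686% and 0.354% of genes were called. At an unadjusted p under 0.05 limma gave 1 (Pkp1, without cytokine), 0 and 0, edgeR the same numbers with 0 called. Of all 13270 genes limma had 1143, 1146 and 1059 at that p. With the cell line as a block the numbers of members at that p were 1 (Jup), 1 (Jup) and 2 (Jup and Pkp1) for ΔHD1, and 1 (Dsc2), 1 (Dsc2) and 0 for ΔHD2. Of all 13270 genes 676, 751 and 1028 had such a p for ΔHD1 and 1234, 1273 and 1119 for ΔHD2. The block called 0 members, where 0.098%, 0.0301% and 0.0301% of genes were called for ΔHD1 and 0.573%, 0.573% and 0.407% for ΔHD2. Without cytokine Pkp1 was at 514, 444 and 446 CPM in ΔHD2/- and at 819.6 and 1226 in ΔHD2/fl, a difference of -1.10 ± 0.48 (limma adjusted p = 0.539). Without ΔHD1/fl line 2, Dsg1a and Pkp3 were called as lower in ΔHD1/- than in ΔHD1/fl with Wnt3a. This sets the single ΔHD1/fl line left, taken to vary as the other groups do, against ΔHD1/- lines that hold 0 reads of Dsg1a. The shares above belong to fits on all lines, so nothing is read from these calls.

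The responses themselves were also compared between these lines. For Wnt3a, 0 members were called for ΔHD1/- minus ΔHD1/fl (0% of all genes with and without the block) and for ΔHD2/- minus ΔHD2/fl (0.0151%, and 0.121% with the block). For TGFβ, 0 were called for ΔHD1 (0.00754% of genes, and 0.0226% with the block) and for ΔHD2 (0.0301%, and 0.098% with the block). Between the ΔHD1 and ΔHD2 lines 0 were called for Wnt3a (0.00754% of genes with and without the block) and for TGFβ (0% without the block and 0.467% with it). In all of these without the block, 0 members had an unadjusted p under 0.05 by limma or edgeR, and edgeR called 0. With it, 1 member (Dsc2) had such a p for the TGFβ response of ΔHD2/- against ΔHD2/fl and 2 (Dsc2 and Pkp3) for that of the ΔHD1 against the ΔHD2 lines, and 0 were called. Of all 13270 genes 1167 and 1534 had such a p in these comparisons, in that order.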

How the data were processed

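The authors sequenced stranded poly(A) libraries as single reads, mapped them with STAR (mm10) and deposited counts per 1000000 reads (CPM). Single-hit mapping and QuasR counts of RefSeq genes come from a methods paragraph that names another sequencer and, of the lines here, ΔHD2 alone, and are taken to hold here. Their methods give edgeR at an FDR of 0.05 and a log2 fold change of 1, the limits used here, and another rule stands beside their gene lists. The CPM steps gave whole reads for 100% of values (tolerance 0.01 read), which edgeR then used as an alternative. Of 24454 identifiers, 24374 matched a symbol. Here limma was fitted to log2(CPM + 1), so low genes have understated folds, on the 13270 genes that reached 1 CPM in 2 or more libraries, with 12 group means and Benjamini-Hochberg adjustment over all genes. Dsc3 failed this filter and Dsc1 was kept out of tests. Calls needed an adjusted p of at most 0.05 and a change of at least 1. A mean response averages the 4 genotypes.

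Replicate numbers name a cell line within a genotype. Deviations from group means correlated in all 27 pairs of libraries of a line (0.509 to 0.940), so the lines pair the treatments and fits with the cell line as a block stand beside the others. Members, lists and rules were chosen with earlier results of these data known. Named genes were the members, the listed genes and, per member, the 3 genes of highest Pearson correlation, which for Dsp are not reported here. The labels describe 2 lines from different mice per genotype and do not describe the third ΔHD2/- line, so the p-values measure the spread between these lines only. The steps were tested on simulated data. R 4.3.3, limma 3.58.1, statmod 1.5.0, edgeR 4.0.16 and Python 3.11.15 were used.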

Additional observations from a re-analysis of the deposited data

How the results depend on the processing

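Of 582 counts of members called under an alternative, 526 equalled the main count and 56 did not, and of 600 single changes 502 kept direction and call, 71 became called and 27 turned sign. Fits with the replicate block beyond the planned one (with median-of-ratios scaling, a pseudocount of 0.1, ΔHD2/- lines 2 and 3 averaged, edgeR, or a line left out) and the comparison of ΔHD1 with ΔHD2 lines were chosen after seeing the data. With the replicate block, members called went from 0 to 2 for the mean TGFβ response (3 with pseudocount 0.1, 2 with each of the other blocked settings, 1 to 3 with a line left out) and to 1 each in ΔHD1/fl, ΔHD1/- and ΔHD2/fl (also 1 under the blocked alternatives, except 0 in ΔHD2/fl with edgeR, and 0 to 2 with a line left out), and in ΔHD2/- to 1 (Dsg1a) with blocked edgeR. Leaving out ΔHD1/fl line 2 without the block gave 3 for the mean TGFβ response and 2 for ΔHD1/- against ΔHD1/fl with Wnt3a, and with the block 1 for TGFβ in ΔHD1 minus ΔHD2 lines. Leaving out ΔHD2/- line 1 with the block gave 1 (Dsc2) for the TGFβ difference of ΔHD2, which is no test of it, since the ΔHD2/- lines left hold 0 Dsc2 reads. The block changed no other call. Shares of all genes called under these alternatives are not given here, so nothing is read from these counts. For the mean TGFβ response the Pkp3 call held under every blocked alternative (adjusted p 3.59e-05 to 0.00518). Signs turned for uncalled changes: Pkp1 with TGFβ (0.1044 with median-of-ratios scaling, blocked or not, 0.1034 with edgeR, 0.1259 with blocked edgeR, -0.2835 to 0.1459 with a line left out, 0.007475 and 0.08585 among them), Dsg2 with TGFβ (0.09146 with blocked edgeR, -0.603 to 0.1501 with a line left out, 0.02468 without ΔHD1/- line 1), Jup with TGFβ (-0.01229 to 0.1261 with a line left out), Dsc2 with Wnt3a (-0.1564 to 0.008017 with a line left out), and Dsg3 with Wnt3a (-0.1462 with pseudocount 0.1, -0.08111 to 0.2179 with a line left out, -0.0362 and -0.0114 among them). Their cause was not tested. Depth limits Dsc1, Dsc3, Dsg1a and Dsc2, which lie near a few reads in many libraries.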
